A study of Homo sapiens with 6 samples.

Results

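SW480 cells that carried a hairpin RNA against BZW2 were compared with SW480 cells that carried a non-targeting hairpin. SW480 is an established human line from a colon adenocarcinoma. Both short hairpin RNAs (shRNAs) came from lentiviruses, and the infected cells had been selected as stable lines with puromycin at 1 µg/ml. The comparison rests on 2 of the 6 libraries of the series, 1 library of each kind, and the other 4 come from HT29 and HCT116 cells treated the same way. The titles call the latter HCT116WT, a tag the labels do not explain. The title of the knockdown library carries the tag SH2, which the labels do not explain, and nothing in them says whether its cells were 1 clone or a mixed population. The genes used were the 12184 of 13021 singly listed identifiers that had a value in both SW480 libraries. The study asked which genes and pathways differ when BZW2 is depleted, and the account below is of what differed in SW480 apart from genes of the cell cycle and of stress responses.

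BZW2 encodes a protein related to the translation initiation factor eIF5. It lacks the part of eIF5 that triggers GTP hydrolysis by eIF2, competes with eIF5 for binding to initiation factors, and is known for making the choice of start codon stricter. SW480 is known for a mutant APC gene, so that Wnt signalling is constitutively active.

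The control library held 5078001 reads over listed genes and the knockdown library 6105605. Levels are given as CPM, the reads of a gene relative to a common library total, scaled for composition between the 2 libraries. With 1 library a side there is no measure of spread between cultures, so no test was made. Each ratio carries a 95% interval that covers counting error only. Of 13 colon epithelial markers 6 were listed, with KRT8 at 2432 CPM in the control and 3027 CPM in the knockdown library, and KRT18, KRT19, EPCAM, CDX2 and CDH1 also present. The other 7, among them KRT20, VIL1 and LGALS4, were not listed. None of 6 leukocyte and 4 endothelial markers was listed, and of 6 fibroblast markers COL1A1 was, at 5.22 and 1.61 CPM.

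BZW2 itself (ENSG00000136261, chromosome 7, positions 16646131 to 16706523, GRCh38) stood at 91.5 CPM in the control library and 12.4 CPM in the knockdown library. The knockdown library thus held 13.5% of the control level (10.5 to 17.2%). BZW1, the close relative of BZW2 with a like role in initiation, stood at 666 and 604 CPM, or 90.6% of control (86.5 to 95%).

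A gene was counted as different when it reached 5 CPM in the higher library and the ratio was at least 2-fold. Of 11155 genes that reached 5 CPM, 556 (4.98%) were past that ratio on the higher side in the knockdown library and 821 (7.36%) on the lower side. The median log2 ratio was 0.01 and the SD over genes 0.69. Among them, 807 genes reached 5 CPM in 1 library and not in the other, and 400 of these 807 were past 2-fold; such a gene had to differ to be counted. Genes of cell cycle lists were higher as a group. Of 125 mitosis genes, 89 were past 2-fold higher and 0 lower, led by AURKA, a mitotic kinase gene, and CCNB1, a mitotic cyclin gene. Genes of stress lists were lower, with 31 of 57 hypoxia and glycolysis genes and 29 of 46 ATF4 targets past 2-fold lower and 0 higher in both. HSPA5, which encodes the chaperone BiP, went from 4839 CPM in the control to 628 CPM in the knockdown library.

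With the 424 genes of those lists set aside, 10731 genes remained. Past 2-fold there were 398 higher genes (3.71%) and 727 lower ones (6.77%), and both shares are the background for every list below. At least 4-fold differences were seen for 21 higher and 95 lower genes. The 36 lists described held 196 of the 1125 genes past 2-fold, so most of the differing genes belonged to none of them. Ratios were lower for longer transcripts. When genes were cut into 5 equal classes by transcript length, the shortest class had a median log2 ratio of 0.12 and the longest a median of -0.15. In the longest class 8.81% of genes were past 2-fold lower, against 6.10% in the shortest. Removing this trend moved the medians of the 43 lists by at most 0.12.

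**Figure D1:**
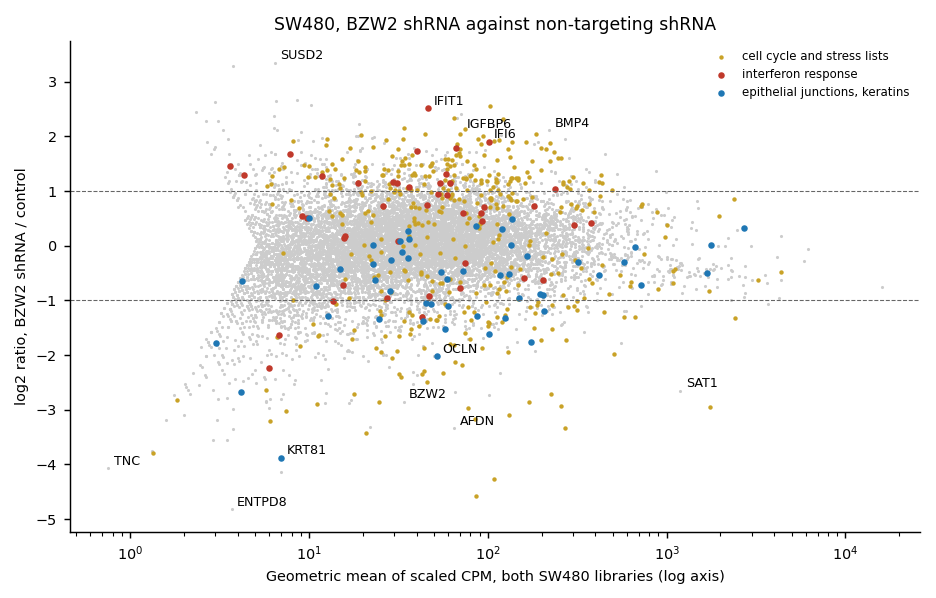
Each point is 1 of 11155 genes in SW480; the x axis is the geometric mean of its scaled CPM in both libraries, with 0.1 CPM added to each, on a log axis, and the y axis its log2 ratio of knockdown over control, with dashed lines at 2-fold. Interferon genes (red) lie mostly above 0, with IFIT1 at 2.51, while junction and keratin genes (blue) lie mostly below 0, with OCLN at -2.02.

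Outside the cell cycle and stress lists, the genes whose ratio lay farthest above 1 after allowing for counting error were of several kinds. SUSD2, a sushi-domain membrane protein gene, stood at 1.81 CPM (9 reads) in the control and 21.5 CPM (134 reads) in the knockdown library, 11.9-fold higher (6.10 to 26.6). STXBP6, which encodes a regulator of membrane fusion, had 5 reads in the control and 80 in the knockdown library, 12.8-fold higher (5.27 to 40.5). Both were close to undetected in the control cells, and their intervals are wide for that reason. BMP4, a bone morphogenetic protein ligand, went from 106 to 460 CPM, 4.33-fold higher (3.94 to 4.75). IGFBP6, a secreted binding protein with a preference for insulin-like growth factor II, stood at 30.7 and 164 CPM, 5.35-fold higher (4.51 to 6.39). CYP24A1, the enzyme that inactivates vitamin D, stood at 94.9 and 345 CPM, 3.63-fold higher (3.29 to 4.02). These 3 genes had at least 153 reads in each library, and counting error is small beside their differences. The vitamin D receptor gene VDR was not higher, at 9.83 and 4.98 CPM. AQP3, a water and glycerol channel gene, went from 12 to 106 reads, TRHDE, a thyrotropin-releasing hormone peptidase gene, from 16 to 139 reads, and the long non-coding RNA gene MIR1915HG from 20 to 159 reads. CEP55, a cytokinesis gene that the mitosis list did not contain, was 4.09-fold higher (3.61 to 4.65).

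The genes farthest below 1 included several that were all but lost. ENTPD8, an ectonucleotidase gene, had 116 reads in the control and 3 in the knockdown library, 2.07% of control (0.421 to 6.20%). NELL2, which encodes a secreted guidance glycoprotein, had 156 and 9 reads, 4.62% of control (2.07 to 9.0%). TNC, which encodes the matrix protein tenascin-C, had 28 and 0 reads, with an upper interval bound of 11.3% of control. With 3 reads taken as the floor of the knockdown library, it was 11.7-fold lower, leaving aside counting error in the control. RIMKLB, a glutamate ligase gene, had 33 and 1 reads, and PTGS1, the constitutive cyclooxygenase, 66 and 5. Transcription factor RUNX2 had 57 reads in the control and 4 in the knockdown library, and the chemokine receptor CXCR4 had 66 and 6. For these genes the direction is clear within the 2 libraries while the size of the ratio is loose. Among well-covered genes, AFDN, which encodes the adherens junction protein afadin, went from 208 to 20.2 CPM, 9.75% of control (8.04 to 11.7%). PKIB, a protein kinase A inhibitor gene, stood at 9.56% of control (6.77 to 13.2%), S100A14 at 15% (13 to 17.2%), and the fatty acid activating enzyme gene ACSL5 at 15.6% (13.1 to 18.4%).

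Interferon-stimulated genes were higher in the SW480 knockdown library, with a group of exceptions. Type I interferons bind a receptor that activates a complex of transcription factors, which binds an element in the promoters of its target genes; many products block viral RNA or its translation. Of the 63 genes on the list, 43 reached 5 CPM, 16 were past 2-fold higher and 4 past 2-fold lower, and the median log2 ratio was 0.71. Of those 43, 5 reached 5 CPM in 1 library and not in the other, and all 5 were past 2-fold. The element was searched as GAAANNGAAA on the gene's strand and as TTTCNNTTTC, its reverse complement, on the other, in windows from 250 bases before to 50 bases after each RefSeq start (GRCh38.p14). It was found in 23 of the 37 interferon genes with a promoter entry (62.2%), and in 996 of all 27305 promoters (3.65%). A match is no proof of a bound site. The upstream stretches below were taken only from genes with a match. They are shown for 3 of the genes farthest above the control and 2 below it, with each match in capitals.
IFIT1 (chr10:89392487-89392549, plus strand): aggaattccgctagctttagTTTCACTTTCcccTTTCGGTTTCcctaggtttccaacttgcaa
IFI6 (chr1:27672256-27672368, minus strand): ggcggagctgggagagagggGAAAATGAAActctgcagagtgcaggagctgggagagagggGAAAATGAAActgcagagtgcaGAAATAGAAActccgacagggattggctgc
SAMD9 (chr7:93118086-93118135, minus strand): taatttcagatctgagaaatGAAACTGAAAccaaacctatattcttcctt
IFITM1 (chr11:313980-314029, plus strand): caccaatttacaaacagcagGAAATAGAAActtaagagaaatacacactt
IFITM3 (chr11:320866-320932, minus strand): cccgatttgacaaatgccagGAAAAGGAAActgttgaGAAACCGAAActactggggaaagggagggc

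Of these 5 genes, all chosen with a match, the first 3 were higher in the knockdown library and the last 2 lower. IFIT1, which binds viral RNA that lacks host cap methylation, stood at 19.3 CPM (96 reads) in the control and 111 CPM (691 reads) in the knockdown library, 5.76-fold higher (4.65 to 7.21). IFI6, a small protein of the endoplasmic reticulum and mitochondria, stood at 52.2 and 196 CPM, 3.76-fold higher (3.29 to 4.32). The antiviral gene SAMD9 stood at 35.5 and 123 CPM, 3.46-fold higher (2.94 to 4.10). OAS3, which makes the activator of RNase L, was 3.37-fold higher (2.73 to 4.20). The cytosolic RNA sensors were also higher, IFIH1 at 19.5 and 44.4 CPM and RIGI at 41.3 and 91.8 CPM, as were ISG15, a ubiquitin-like modifier, at 165 and 338 CPM and USP18, the protease that removes it, at 7.43 and 18.5 CPM. IFIT2 and IFIT5, which neighbour IFIT1 on chromosome 10, stood at log2 ratios of 1.67 and 0.92. Of the transcription factors that carry the signal, STAT2 stood at 52.6% of control (43.9 to 62.7%) and IRF9, with 14 reads in the control and 15 in the knockdown library, at 85.8% (38.6 to 192%). IRF1, another interferon-induced transcription factor, stood at 37.9 and 19.4 CPM.

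The 4 interferon genes past 2-fold lower were 3 of the IFITM family, which block viral entry at membranes, and the exonuclease gene ISG20. IFITM1 had 67 reads in the control and 16 in the knockdown library, 19.1% of control (10.3 to 33.4%). IFITM3 stood at 67.8 and 27.2 CPM, 40.0% of control (33.1 to 48.3%), and IFITM2 at 48.7% (34.6 to 68.0%). The 3 IFITM genes are related neighbours on chromosome 11, and the annotated span of IFITM1 lies within that of IFITM2. The split of reads between them is therefore uncertain. Of the interferon genes with the element in the window, 11 of 23 were past 2-fold higher and 3 lower, with a median log2 ratio of 0.94; of those without it, 3 of 14 were higher and 0 lower, with a median of 0.52.

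The median of the interferon list had the opposite sign in the other colorectal lines, each compared with its own control. Of the 43 genes, 33 were past 2-fold lower in HT29, where 6.17% of all genes were past 2-fold lower. In HCT116, where 28.8% of all genes were past 2-fold lower, 20 of the 39 that reached 5 CPM were. The medians of the list were -1.59 in HT29 over 43 genes and -1.19 in HCT116 over the 42 with a value there, some below 5 CPM. Of the 16 genes higher in SW480, 15 were past 2-fold lower in HT29, and 8 of 13 were past 2-fold lower in HCT116. The rest of those 13 were above control in HCT116. OAS3 stood there at a log2 ratio of 1.89, USP18 at 0.97, ISG15 at 0.51, PARP12 at 0.42 and TRIM21 at 0.21. IFITM1 was lower in the HT29 knockdown library too, at a log2 ratio of -3.00. In HCT116, where it did not reach 5 CPM, it had 21 reads in the control and 0 in the knockdown library. With 1 library a side in each line, the difference between lines was not tested.

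**Figure D2:**
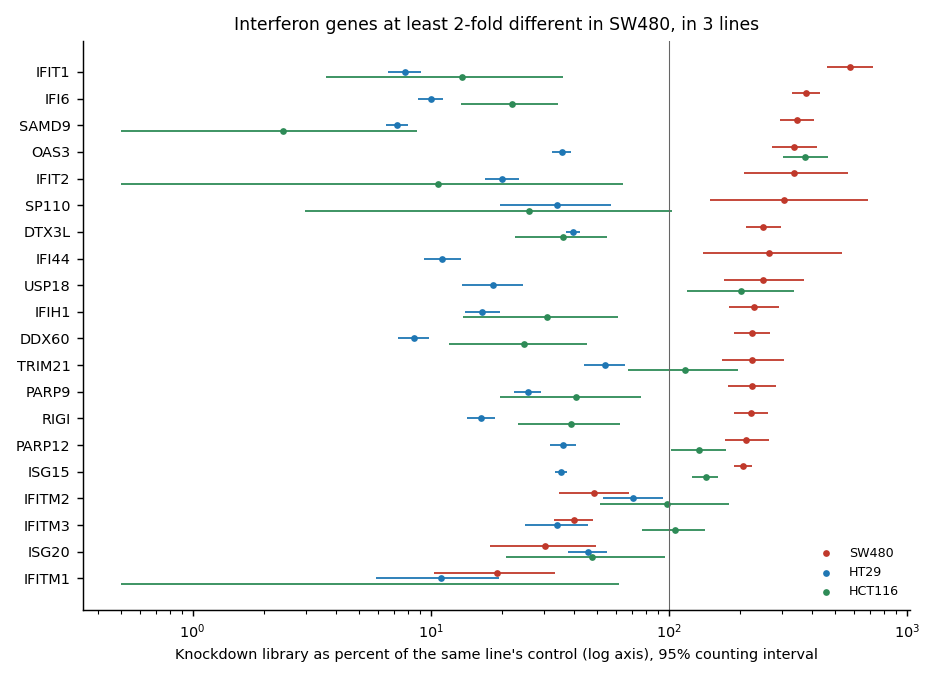
Level in the knockdown library as a percentage of the same line's control (log axis) for the 20 interferon genes past 2-fold in SW480, with 95% counting intervals cut off at 0.5%; a line with 0 reads has no point. The 16 genes at the top lie above 100% in SW480 and below 100% in HT29, while IFITM1 lies below 100% in both.

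Genes of epithelial cell contacts were lower. Epithelial cells are held together by tight junctions of claudins and occludin, adherens junctions of E-cadherin and desmosomes anchored to keratins. Of 51 genes, 16 were past 2-fold lower and 0 higher, with a median log2 ratio of -0.54 (also -0.54 with the length trend removed). Of the 51, 4 reached 5 CPM in 1 library and not in the other, and 3 of these were past 2-fold. OCLN, the occludin gene, stood at 105 CPM (525 reads) in the control and 25.7 CPM (160 reads) in the knockdown library, 24.4% of control (20.3 to 29.2%). CLDN7 stood at 323 and 94.8 CPM, 29.4% of control (26.7 to 32.3%), and CLDN3 and CLDN4 at 40.0 and 43.4%. CDH1, the E-cadherin gene, stood at 178 and 58.3 CPM, 32.7% of control (28.9 to 37.0%). The plakoglobin gene JUP was at 34.6% (29.4 to 40.8%), the desmosomal linker gene PPL at 41.2% and the tight junction scaffold gene TJP3 at 47.5%. The tricellular junction gene LSR was at 46.0%, and the transcription factor gene GRHL1 and the polarity gene PARD6B were at 39.0 and 39.9%. Thus all 3 kinds of junction had members past 2-fold lower, the desmosomes only through JUP and PPL among the genes named here. Other desmosome genes were not past 2-fold. DSP stood at 68.5% of control, PKP2 at 65.4%, DSG2 at 81.3%, DSC2 at 101% and PKP3 at 124%.

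The keratin genes differed among themselves. KRT81 went from 142 reads to 10 and KRT80 from 56 to 9, while the keratins of simple epithelia stood at 124% of control for KRT8 (122 to 127%), 100% for KRT18 (97.6 to 103%) and 70.5% for KRT19 (68.5 to 72.6%). KRT81 and KRT86 (29 and 9 reads) are near-identical hair keratin genes whose reads may be split unevenly. EPCAM, an epithelial adhesion gene, was at 81.7% of control (76.5 to 87.3%). Of 20 genes of the mesenchymal list, 1 was past 2-fold higher and 3 lower: S100A4 was 2.65-fold higher (2.47 to 2.84), while FN1 and L1CAM were among the lower ones. In HT29 and HCT116 the median of the junction list was -0.15 and 0.02. Past 2-fold, 1 of 46 genes was lower and 0 higher in HT29. In HCT116, 13 of 48 were lower and 13 higher. There 28.8% of all genes were past 2-fold lower, and 24.7% of the genes shared with SW480 were past 2-fold higher. OCLN stood at log2 ratios of -0.70 in HT29 and 0.07 in HCT116, CLDN7 at -0.21 and 0.14, and CDH1 at -0.78 and -1.10. GRHL1, PARD6B and CLDN3 stood at -1.73, -1.55 and -1.44 in HCT116.

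Integrin and matrix genes went in both directions. Of 49 genes, 14 were past 2-fold lower and 6 higher, with a median log2 ratio of -0.46 (-0.38 with the length trend removed); 7 of the 49 reached 5 CPM in 1 library and not in the other, and 4 of those were among the 20. Lower members included the fibronectin gene FN1 at 22.5% of control (16.8 to 29.9%), COL18A1 at 28.3% (24.5 to 32.6%), the laminin chains LAMB1, LAMB2 and LAMB3 at 35.8, 37.1 and 47.5%, and the collagen and laminin receptor subunits ITGA2 at 36.6% (33.9 to 39.5%) and ITGA3 at 46.8% (43.9 to 49.9%). Higher members were VCAN, which encodes the proteoglycan versican, at 137 and 535 CPM, COL12A1, a fibril-associated collagen, at 98.7 and 367 CPM, COL13A1, COL17A1, the integrin subunit ITGB8 at 25.3 and 71.0 CPM and the syndecan gene SDC1 at 31.7 and 83.7 CPM. VCAN was 3.90-fold (3.59 to 4.24), COL12A1 3.71-fold (3.37 to 4.10), ITGB8 2.81-fold (2.30 to 3.45) and SDC1 2.64-fold higher (2.21 to 3.18).

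**Figure D3:**
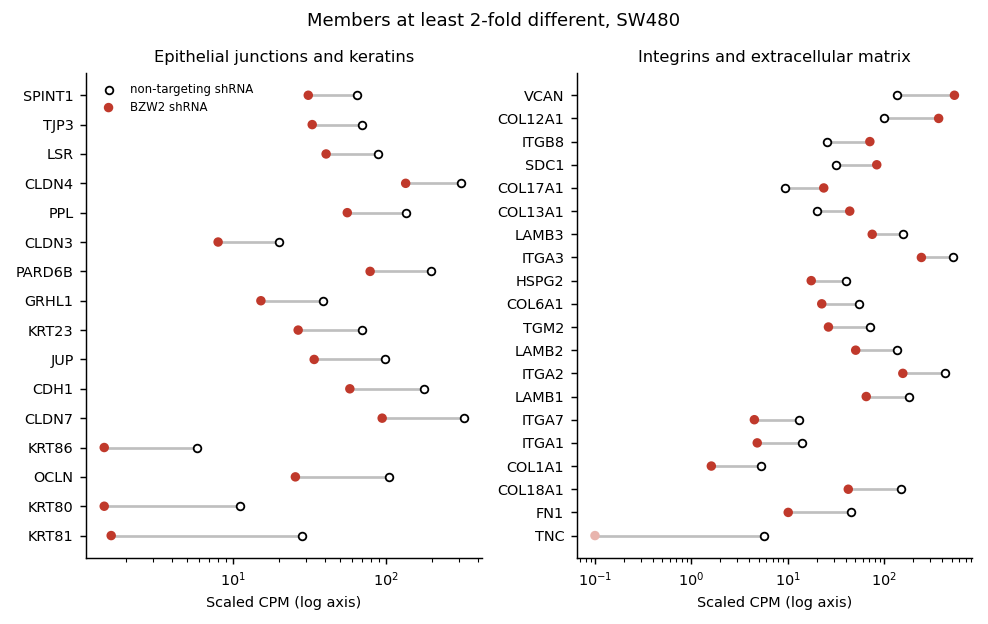
Scaled CPM (log axes) in the control (open circles) and knockdown library (filled circles) for the 16 junction and keratin genes and the 20 integrin and matrix genes past 2-fold in SW480; TNC had 0 reads in the knockdown library and is drawn pale at 0.1 CPM. All 16 genes at the left are lower in the knockdown library, while 6 genes at the right, VCAN and COL12A1 among them, are higher.

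Of 39 genes of the TGF-beta and BMP list, BMP4 was the 1 past 2-fold higher and 6 were lower. The median log2 ratio was -0.39. Of the 39, 3 reached 5 CPM in 1 library and not in the other, and all 3 were past 2-fold. The homeobox genes MSX1 and MSX2, known as targets of BMP and Wnt signals, stood at 42.3 and 120 CPM and at 12.8 and 34.6 CPM, 2.84-fold (2.44 to 3.33) and 2.69-fold higher (2.03 to 3.61). BAMBI, a decoy receptor that dampens TGF-beta and BMP signals, went from 131 to 54 reads, 33.0% of control (23.6 to 45.7%). PMEPA1, a TGF-beta target, was at 39.1% (26.2 to 57.4%), and INHBB and INHBE, activin and inhibin subunits, went from 28 to 8 and from 29 to 10 reads.

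Of 47 Wnt pathway genes and targets, 7 were past 2-fold lower and the 2 higher were MSX1 and MSX2. The median log2 ratio was -0.38. Of the 47, 4 reached 5 CPM in 1 library and not in the other, and 3 of these were past 2-fold. AXIN2 and NKD1, feedback inhibitors that Wnt signalling induces, stood at 29.1 and 13.8 CPM and at 32.3 and 12.2 CPM, or 47.5 and 37.8% of control. SOX4, a transcription factor, stood at 268 and 78.4 CPM, 29.3% of control (26.4 to 32.5%). TNFRSF19, a receptor of the tumour necrosis factor family, went from 94 to 16 reads and the ligand WNT7B from 38 to 9. In HT29 NKD1 and EPHB3, another Wnt target, were on the other side, at log2 ratios of 1.96 and 1.70 against -1.38 and -1.05 in SW480. Of 19 Notch genes 3 were past 2-fold lower and 0 higher. They were the ligands DLL4 (35 and 8 reads) and DLL1 (32 and 14 reads) and the receptor NOTCH3 (164 and 75 reads). DLL4 and DLL1 reached 5 CPM in the control library only, so they had to differ to be counted.

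A further list held growth factor, cytokine and nuclear receptors with some ligands and binding proteins. Of its 47 genes, 4 were past 2-fold higher and 7 lower. The lower ones included the nuclear receptor genes NR1D1, RARA, PPARD and PPARA, and the higher ones the binding protein gene IGFBP6. The median log2 ratio was -0.20. Of the 47, 3 reached 5 CPM in 1 library and not in the other, and 2 of these were past 2-fold. The receptors for insulin, INSR, and insulin-like growth factor, IGF1R, stood at 36.6% (31.3 to 42.7%) and 36.9% of control (28.3 to 47.8%). AREG, the epidermal growth factor receptor ligand amphiregulin, stood at 1024 CPM in the control and 298 CPM in the knockdown library, 29.1% of control (27.6 to 30.7%), and was the 1 of 8 genes of its family past 2-fold. Higher ligands were FGF2 at 2.45-fold (1.84 to 3.30), FGF9 at 2.33-fold (1.63 to 3.39) and the interleukin-6 family cytokine LIF at 2.70-fold (2.26 to 3.24). The nuclear receptor gene NR2F2 stood at 6.42 and 20.1 CPM. Of 24 genes of ERK output and feedback, 1 was past 2-fold higher and 2 lower. The lower ones were the ERK phosphatase gene DUSP5, at 262 and 52.4 CPM, and UPP1, the uridine phosphorylase gene, at 12.6% (8.10 to 19%).

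Among 38 apoptosis regulators 1 was past 2-fold higher and 0 lower, with a median log2 ratio of 0.36. It was BAX, which forms pores in the outer mitochondrial membrane, at 31.9 CPM (159 reads) in the control and 68.1 CPM (424 reads) in the knockdown library, 2.14-fold higher (1.78 to 2.58).

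Several metabolic genes were past 2-fold. SAT1, the enzyme that marks polyamines for export or breakdown, stood at 2987 CPM (14886 reads) in the control and 475 CPM (2955 reads) in the knockdown library, or 15.9% of control (15.3 to 16.5%). ARG2, the mitochondrial arginase, was at 13% (8.92 to 18.5%) and ASS1, argininosuccinate synthase, at 43.7% (39.8 to 48.1%). The median of their list of 20 polyamine and proline genes was 0.03, with 1 past 2-fold higher and 3 lower. TFRC, the transferrin receptor that takes up iron, stood at 254 and 806 CPM, 3.18-fold higher (2.98 to 3.38). ALDH1A3, an aldehyde dehydrogenase that makes retinoic acid, stood at 543 and 1391 CPM, 2.56-fold higher (2.45 to 2.68), and the efflux pump gene ABCC2 was 3.30-fold higher (2.84 to 3.84). With TFRC they belong to a list of 58 NRF2, glutathione and metallothionein genes. In that list 6 genes were past 2-fold higher and 2 lower, and the median log2 ratio was 0.21. In sterol synthesis ACAT2, FDPS and EBP were 2.41-, 2.08- and 2.08-fold higher, while STARD4, a cholesterol carrier, was at 34.8% of control (31.0 to 39.1%).

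Genes of the ribosome itself shifted little but nearly all one way. Of 77 cytosolic ribosomal protein genes, 75 had a ratio below 1 and 0 were past 2-fold higher; the median log2 ratio was -0.47 and 1, RPS16, was past 2-fold lower. Ribosomal protein genes have many processed copies, so the reads given to RPS16 (334 and 173) are uncertain. Host genes of small nucleolar RNAs, several of which share with ribosomal protein mRNAs a pyrimidine-rich start, had a median of -0.78 over 13 genes, with 4 past 2-fold lower and 0 higher. GAS5 stood at 896 and 393 CPM, 43.8% of control (41.7 to 46.0%), and ZFAS1 at 596 and 200 CPM, 33.6% (31.5 to 36.0%). SNHG32 and EPB41L4A-AS1 were at 45.7 and 44.6%. A list of 46 genes of ribosome biogenesis and other growth-related genes had a median of 0.41, with 2 past 2-fold higher, a share near the background, and 0 lower; UTP20 and MRTO4, which act in rRNA processing and large subunit assembly, were both 2.16-fold higher. Translation initiation factors had a median of 0.05 over 49 genes, and BZW2 was the 1 past 2-fold. Nuclear genes of the respiratory chain had a median of 0.39 over 53 genes, with 50 above 0, and the 13 mitochondrially encoded mRNAs a median of -0.27, with 0 past 2-fold in either direction and MT-CO1, the member with the highest CPM, at 50.4% of control (49.2 to 51.7%).

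**Figure D4:**
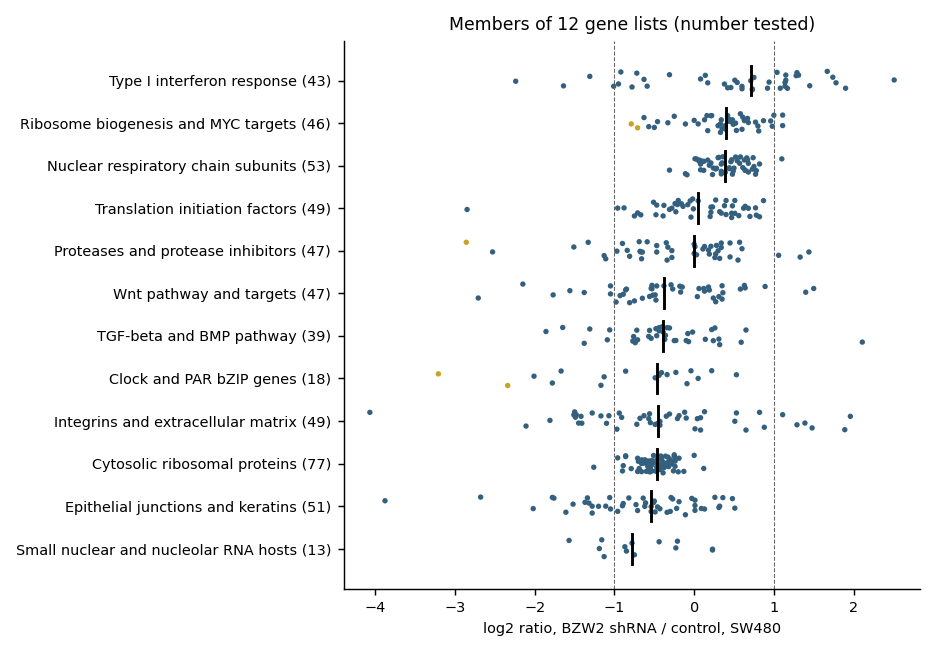
Log2 ratios of knockdown over control in SW480 for the members of 12 lists that reached 5 CPM (points, with genes shared with cell cycle or stress lists in yellow) and the median of each list (black bar); dashed lines mark 2-fold. Ribosomal protein genes sit close together around -0.47, while interferon and matrix genes spread past 2-fold on both sides.

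Clock genes were lower in part. Of 18 genes, 7 were past 2-fold lower and 0 higher, with a median log2 ratio of -0.46. Of the 7, 2, RORA and BHLHE40, also belong to a stress list. RORA and NR1D1 reached 5 CPM in the control library only. PER1, a repressor in the clock loop, stood at 27.3 and 7.71 CPM, 28.3% of control (19.9 to 39.5%), and NR1D1, the nuclear receptor REV-ERB alpha, at 15.1 and 4.50 CPM, 29.9% (18.6 to 46.7%). The output factors DBP and NFIL3 were at 43.7 and 24.6% and the repressor CRY2 at 44.9%. The list of 58 lysosome and autophagy genes had a median of 0.00, with 6 past 2-fold lower and 0 higher. Among the 6, MAP1LC3B, which coats autophagosomes, went from 140 to 42.9 CPM, 30.5% of control (26.4 to 35.2%), and its relative GABARAPL1 was at 42.3% (37.2 to 47.9%).

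Some differing genes lay side by side on a chromosome. Genes were taken in order along each chromosome, without the cell cycle and stress lists, and 10488 windows of 11 consecutive genes were examined for a median log2 ratio beyond 0.8 in either direction, a rule set after the values were seen. Overlapping windows merged into 7 runs, all of them lower. The run of most genes was on the short arm of chromosome 9 (positions 3218297 to 19201046, GRCh38), where 28 of 31 genes were below 1 and 16 past 2-fold lower, with a median of -1.02. It held CD274, the immune checkpoint ligand PD-L1 (38 and 11 reads), ERMP1, a peptidase gene (205 and 80.8 CPM), RIC1, a Golgi transport gene (132 and 46.3 CPM), KDM4C, a histone demethylase gene (31.3 and 10.9 CPM), the transcription factor gene RFX3 (199 and 81 reads) and LURAP1L (87 and 12 reads). A second run lay near the end of the long arm of chromosome 6 (positions 160991727 to 170584692), where 17 of 19 genes were below 1 and 8 past 2-fold lower, with a median of -0.88. AFDN, described above, lies in it, with MPC1, a mitochondrial pyruvate carrier gene, at 20.7% of control (10.9 to 37.0%), WDR27 at 27.4%, RPS6KA2 at 31.7%, RNASET2 at 42.6% and the Notch ligand DLL1. The same genes had medians of -0.40 in HT29 and -1.24 in HCT116 for the chromosome 9 run, and of -0.23 and -0.40 for the chromosome 6 run. DNA copy number was not analysed here, and its part in these runs was not tested.

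**Figure D5:**
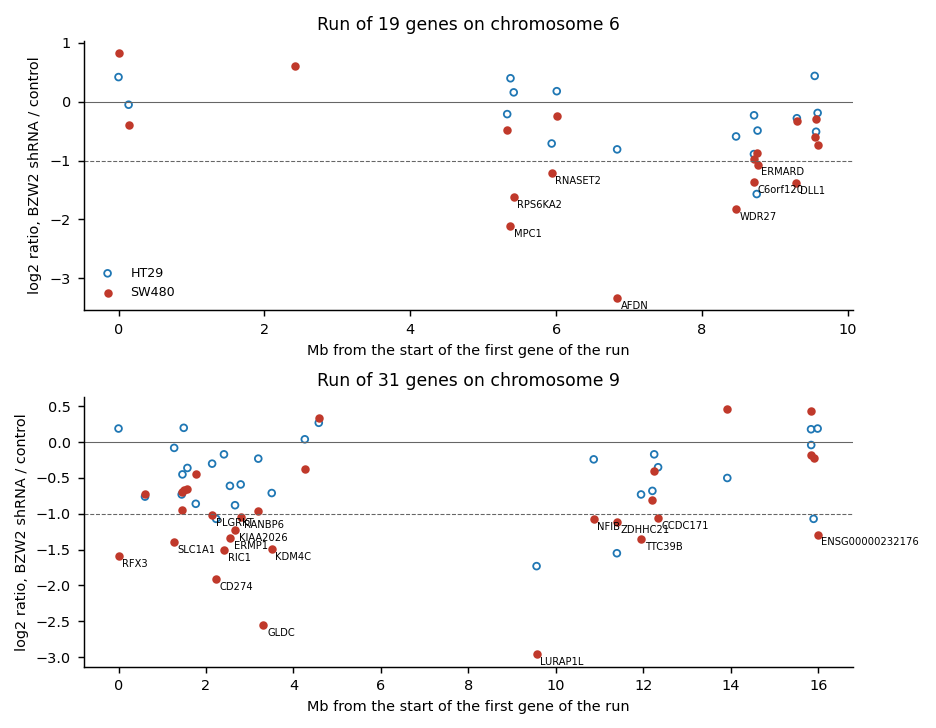
Log2 ratio of knockdown over control for each gene of the runs on chromosomes 6 and 9, in SW480 (filled red) and HT29 (open blue), against distance in Mb from the start of the first gene. In SW480 8 of 19 and 16 of 31 genes lie below the dashed 2-fold line.

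A smaller group on chromosome 5 was higher. XRCC4, which encodes a scaffold of DNA ligase IV in end joining, spans positions 83077498 to 83353787 and stood at 29.7 CPM in the control and 150 CPM in the knockdown library, 5.06-fold higher (4.25 to 6.06). Its neighbours on the 2 sides were TMEM167A, 1.91-fold higher (1.76 to 2.07), and VCAN, 3.90-fold higher. The next listed genes outwards, ATP6AP1L and COX7C, were at 129% (97.9 to 170%) and 105% of control (98.7 to 113%). XRCC4 and TMEM167A overlap at their starts, and reads near the starts could belong to either, because the strand setting of the counting is not given in the sources used here. XRCC4 had log2 ratios of -0.41 in HT29 and -2.03 in HCT116.

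Genes past 2-fold in SW480 were in part past 2-fold the same way in the other lines. Of 491 genes lower in SW480 and measured in HT29, 95 were lower there too, 19.3% of the SW480 list and 18.3% of the HT29 list, where 5.56% of the shared genes were lower. Of 313 higher genes, 51 were higher in HT29, 16.3% of the SW480 list and 22% of the HT29 list, against 2.48%. In HCT116 318 of 647 lower genes (49.1%) and 166 of 356 higher genes (46.6%) went the same way, where 29.7 and 24.7% of the shared genes were lower and higher. They made up 10.2 and 6.42% of the HCT116 lists, since log2 ratios were far wider in that line (SD 1.59, against 0.69 in SW480 and 0.64 in HT29). Across 9968 genes outside the cell cycle and stress lists, Pearson's r between the SW480 and HT29 log2 ratios was 0.33, and across 10658 genes it was 0.27 with HCT116. These describe pairs of libraries, and genes are not independent replicates.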

How the data were processed

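RNA of SW480, HT29 and HCT116 cells was sequenced in 1 library per line and hairpin. Per the submitters' processing notes, the build was GRCh38 and the named tools STAR 2.5.2b, bcl2fastq 2.17 and DESeq; which counter, annotation and strand setting served was not given in the sources used here. The deposited table holds a normalised signal per gene, which the values show to be read counts divided by a size factor. Dividing by the step of each column gave whole reads for 100% of values within 0.1 read; the smallest SW480 control value stood for 2 reads. Of 13040 identifiers, 19 were repeated and left out, and listed genes had at least 21 reads over both SW480 libraries. Symbols matched 12167 and GENCODE 29 matched 12181 of the 12184 genes.

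Reads were scaled with TMM (edgeR 4.0.16, R 4.3.3) within each line, and the log2 ratio used a prior count of 2. CPM, folds and percentages carry no prior, and their exact Clopper-Pearson intervals at 95% cover counting error only. No count test is possible with 1 library a side, so none was made. The ratio and interval code was tested on simulated data. Named genes were BZW2 and BZW1, the 15 highest and 15 lowest outside the cell cycle and stress lists by the interval bound nearer 1, up to 4 members a direction of each list (2 for cell cycle and stress lists), all markers, and the member of highest CPM in any list with none past 2-fold. Other list members, VDR, STAT2, IRF9, IRF1 and genes of chromosome runs were named after their values were seen. The comparison, members and lists were chosen with earlier results of these data known. Some list members and 1 list are not reported here. Alternatives were library size scaling, the authors' size factors, other prior counts and CPM minimums, removal of a lowess trend on transcript length, and a call that needs the whole interval beyond 2-fold.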

Additional observations from a re-analysis of the deposited data

Results flagged for a closer look

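A set of interferon genes differed between cell lines: each was at least 2-fold higher in the SW480 knockdown library and at least 2-fold lower in the knockdown libraries of both other lines. IFIT1 had a log2 ratio of 2.51 in SW480, -3.67 in HT29 and -2.62 in HCT116. IFI6 stood at 1.90, -3.31 and -2.13, and SAMD9 at 1.78, -3.78 and -4.84. The HCT116 knockdown library held few reads of these genes, 4 of IFIT1, 21 of IFI6 and 2 of SAMD9, so the ratios there are loose. The median of the interferon list was 0.71 in SW480 and -1.59 in HT29 over 43 genes, and -1.19 in HCT116 over the 42 with a value there. With 1 library a side in each line, the difference between lines was not tested.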

How the results depend on the processing

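The number of genes past 2-fold kept within 1.5 times of the reported one under both other scalings, both other prior counts, a CPM minimum of 1 and removal of the length trend. With a CPM minimum of 20 fewer genes were counted, and there were 427 lower genes in place of 821 and 426 higher ones in place of 556. The greater number of lower than higher genes was thus not seen at that minimum. When the whole interval had to lie beyond 2-fold, 239 genes were higher and 359 lower. All 177 named genes past 2-fold kept their sign in all alternatives, and 16 of them came under 2-fold in at least 1. The ratios of 11 named genes with few reads in 1 library, among them TNC, RIMKLB, ENTPD8, NELL2, RUNX2, CXCR4 and STXBP6, moved by over 1.5 times with a prior count of 8. Of 301 list medians under alternatives, 2 changed sign: cytokines and NF-kappaB feedback went from -0.26 to 0.10 with a CPM minimum of 20, and ERK output from -0.04 to 0.02 with library size scaling. The median of all genes moved from 0.01 to 0.06 with library size scaling and to 0.03 with the authors' size factors. No paired analysis was possible because each hairpin had 1 SW480 library. Intervals cover counting error only, and spread between cultures, hairpins and clones cannot be told apart from the knockdown.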

Other observations

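Of 32 small nucleolar RNA genes that reached 5 CPM, 30 had a ratio below 1 and 12 were past 2-fold lower, with 0 higher and a median log2 ratio of -0.86; the medians of the same genes were 0.03 in HT29 and 3.12 in HCT116. Small nucleolar RNAs lie in introns of host genes and are shorter than most library fragments, so their reads depend on how fragments were selected, which is not given in the sources used here. Of 27 calcium-binding genes, 3 were past 2-fold higher and 3 lower. ANXA3, an annexin, was 3.06-fold higher (2.83 to 3.31), and CALB2, the calretinin gene, 2.36-fold higher (1.65 to 3.44), against the low S100A14. Of 22 intestinal identity genes, 3 were past 2-fold higher and 3 lower. The homeobox genes HOXA9 and HOXB4 were 2.08-fold (1.73 to 2.51) and 3.0-fold higher (1.94 to 4.77). Of 47 proteases and protease inhibitors, 3 were past 2-fold higher and 6 lower. Of the 47, 6 reached 5 CPM in 1 library and not in the other, and 3 of these were past 2-fold. The inhibitor gene SERPINB5 was 2.73-fold higher (2.39 to 3.12), at 58.0 and 158 CPM.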
